A study of Mus musculus with 2 samples.

Results

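The mouse adrenal gland was examined for 7 microRNA genes known as markers of epithelium: the 5 genes of the mir-200 family (Mir200a, Mir200b, Mir200c, Mir141 and Mir429), Mir203 and Mir205. They were chosen by name and not by a rule on their values, but with earlier results of these data known. All 7 were found among the 2202 miRNA genes counted. MicroRNA-seq had been run on adrenal tissue of adult male mice of the strain given as 5xFAD/CAST, aged 8 to 10 months, from RNA below 30 nucleotides. 5xFAD names a transgenic Alzheimer's disease model whose transgenes are driven by a neuronal promoter, and CAST a wild-derived inbred strain. The labels do not say which animals carried the transgenes. There was 1 group of 2 libraries, labelled biological replicates 1 and 2, with separate tissue records but the same donor record. The spread between them may therefore be partly technical, and no comparison of conditions was possible. The labels give adrenal gland tissue and no sorted cells, so fewer cells of a type and less RNA per cell cannot be told apart.

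MicroRNAs pair with messenger RNAs mainly through the seed, bases 2 to 8 of the mature strand, and lower the output of those messengers. The mir-200 family is known for repressing the transcription factors Zeb1 and Zeb2, which in turn repress genes of epithelial cell contacts and the mir-200 genes themselves. Mir203 is best known from skin, where its product restrains the stem cell factor p63, and Mir205 from the basal cells of stratified epithelia. The adrenal gland joins a steroid-producing cortex with a medulla of neuroendocrine chromaffin cells, inside a mesenchymal capsule, and has no stratified epithelium.

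The mature sequences show which members could share targets, and which could be confused during alignment. They are taken from RefSeq on GRCm38.p6, the assembly also known as mm10, where all 7 members were matched. Each is written 5′ to 3′ with the seed in capitals, and the arm shown is the one generally taken as the main product.
miR-200b-3p: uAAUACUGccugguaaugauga
miR-200c-3p: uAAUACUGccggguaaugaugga
miR-429-3p: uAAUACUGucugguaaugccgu
miR-200a-3p: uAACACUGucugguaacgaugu
miR-141-3p: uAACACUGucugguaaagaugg
miR-203-3p: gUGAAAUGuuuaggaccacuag
miR-205-5p: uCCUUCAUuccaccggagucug

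The mir-200 family falls into a seed group with AAUACUG (Mir200b, Mir200c and Mir429) and one with AACACUG (Mir200a and Mir141). Counted from the 5′ end, the seeds differ by the substitution U4C from miR-200b-3p to miR-200a-3p. Within a seed group the closest arms differ at 2 of 22 compared bases, by U11G and A22G from miR-200b-3p to miR-200c-3p and by C17A and U22G from miR-200a-3p to miR-141-3p. No other mature miRNA of the RefSeq table carried either family seed, nor the seeds of miR-203-3p and miR-205-5p. No member shared a run of 20 bases with another counted hairpin. The arms shown for Mir203 and Mir205 had at least 7 mismatches to every other counted hairpin. The tables count reads per hairpin gene and do not separate the arms.

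The genes lie at 4 places in the genome. Mir200b (ENSMUSG00000065549.3, chr4:156055681-156055750), Mir200a (ENSMUSG00000065400.1, chr4:156054896-156054985) and Mir429 (ENSMUSG00000065427.1, chr4:156053905-156053987) follow each other on the minus strand, with 695 and 908 bases between them. All 3 lie in introns of Ttll10, and Mir429 also overlaps an exon of the noncoding transcript Gm13648, whose introns hold the other 2. Mir200c (ENSMUSG00000065462.3, chr6:124718322-124718390) and Mir141 (ENSMUSG00000065474.1, chr6:124717914-124717985) lie 336 bases apart on the minus strand, in introns of the noncoding gene Gm15884, and Mir141 also overlaps an exon of the unconfirmed transcript Gm29008. They stand between Phb2 on the other strand, 963 bases from Mir141, and Ptpn6, 2316 bases from Mir200c. Mir203 (ENSMUSG00000065574.1, chr12:112130880-112130955, plus strand) lies outside other genes annotated in GENCODE M21, 3320 bases past the end of Aspg. Mir205 (ENSMUSG00000065533.1, chr1:193507463-193507530, minus strand) overlaps an exon of the noncoding gene 4631405K08Rik.

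Values are CPM, the reads on the strand of the gene scaled to 1000000 such reads over all miRNA genes of a library. The totals were 6783227 reads in replicate 1 and 3084602 in replicate 2. The detection floor was set at 3 reads, the most that 0 counted reads allow, or 0.442 CPM for replicate 1 and 0.973 CPM for replicate 2. Intervals in brackets are 95% intervals (Wilson for levels and shares, exact for ratios) and cover the counting of reads only. Between 30.3% and 32.1% of all reads mapped to several places and were assigned to no gene. The adrenal label was accompanied by abundant neuroendocrine markers, with Mir375 at 70580 ± 16777 CPM (SD, n = 2). Mir202, the 1 gene listed here for steroid-producing tissue, stood at 20.9 ± 2.60 CPM, and 1 gene does not measure the part of the cortex.

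Among these 7 genes Mir203 was by far the most abundant, the mir-200 family was present at low levels, and Mir205 was at the limit of detection. Their joint share of sense miRNA reads was 0.0432% (0.0416 to 0.0447) for replicate 1 and 0.0577% (0.0551 to 0.0605) for replicate 2. Mir203 alone made up 89.4% (88.2 to 90.4) and 93.9% (92.7 to 94.9) of these reads. Above 2 CPM in both replicates were 5 of the 7, as were 334 of all 2202 genes. The exceptions were Mir200a, which was above the floor of 3 reads in both libraries, and Mir205, which was below it.

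Mir203 was counted with 2616 reads in replicate 1 and 1672 in replicate 2, giving 386 CPM (371 to 401) and 542 CPM (517 to 569). Its mean of 464 ± 111 CPM (SD, n = 2) ranked 102 of 2202 genes, with ranks of 104 and 97 in the single libraries. By mean level it stood between Mir330 at 475 ± 79.9 CPM and Mir20a, of the mir-17 cluster, at 450 ± 31.8 CPM. Replicate 2 was 1.41-fold (1.32 to 1.495) above replicate 1, so the libraries differed beyond read counting but by less than 2-fold. Mir203 exceeded the whole mir-200 family 8.44-fold (7.499 to 9.52) in replicate 1 and 15.5-fold (12.7 to 19.0) in replicate 2. The size of that excess therefore also differed between the libraries.

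The 5 mir-200 genes together held 310 reads in replicate 1 and 108 in replicate 2. Their sum was 45.7 CPM (40.9 to 51.1) and 35.0 CPM (29.0 to 42.3), with a mean of 40.4 ± 7.56 CPM (n = 2). In contrast to Mir203, the sum was 1.31-fold (1.05 to 1.64) higher in replicate 1.

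Mir200c led the family in both libraries. It had 161 reads in replicate 1 and 49 in replicate 2, or 23.7 CPM (20.3 to 27.7) and 15.9 CPM (12.0 to 20.999). These reads were 51.9% (46.4 to 57.4) and 45.4% (36.3 to 54.8) of the family, with overlapping intervals. The mean of 19.8 ± 5.55 CPM ranked 246 among all genes, between Mir331 at 20.4 ± 10.5 CPM and Mir493 at 19.3 ± 4.35 CPM. Mir141, its cluster mate, had near-equal values, with 37 and 17 reads giving 5.45 CPM (3.96 to 7.52) in replicate 1 and 5.51 CPM (3.44 to 8.83) in replicate 2. The ratio of replicate 2 to replicate 1 for Mir141 was 1.01, with a wide interval (0.534 to 1.84). Mir200c stood 4.35-fold (3.03 to 6.40) above Mir141 in replicate 1 and 2.88-fold (1.63 to 5.34) in replicate 2. The intervals of both ratios lay above 1 and overlapped each other.

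The chromosome 4 cluster was lower than the chromosome 6 cluster, and its leading gene differed between the libraries. Mir200b had 36 and 26 reads, giving 5.31 CPM (3.83 to 7.35) in replicate 1 and 8.43 CPM (5.75 to 12.4) in replicate 2. Mir429 had 65 and 10 reads, giving 9.58 CPM (7.52 to 12.2) in replicate 1 and 3.24 CPM (1.76 to 5.97) in replicate 2. So Mir429 led this cluster in replicate 1 and Mir200b in replicate 2. The ratio of Mir200b to Mir429 was 0.554 (0.358 to 0.845) in replicate 1 and 2.60 (1.21 to 6.04) in replicate 2, and these intervals did not overlap. Mir200a was the lowest of the family in both libraries, with 11 and 6 reads giving 1.62 CPM (0.906 to 2.90) and 1.95 CPM (0.891 to 4.24). Mir200b exceeded Mir200a 3.27-fold (1.63 to 7.13) in replicate 1 and 4.33-fold (1.74 to 12.9) in replicate 2. The ratio of Mir429 to Mir200a was 5.91 (3.09 to 12.4) in replicate 1 and 1.67 (0.549 to 5.58) in replicate 2. The second interval includes 1, so these 2 genes were not separated in replicate 2. The sum of the cluster varied less than Mir429 did, at 16.5 CPM (13.7 to 19.9) and 13.6 CPM (10.1 to 18.4).

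**Figure D1:**
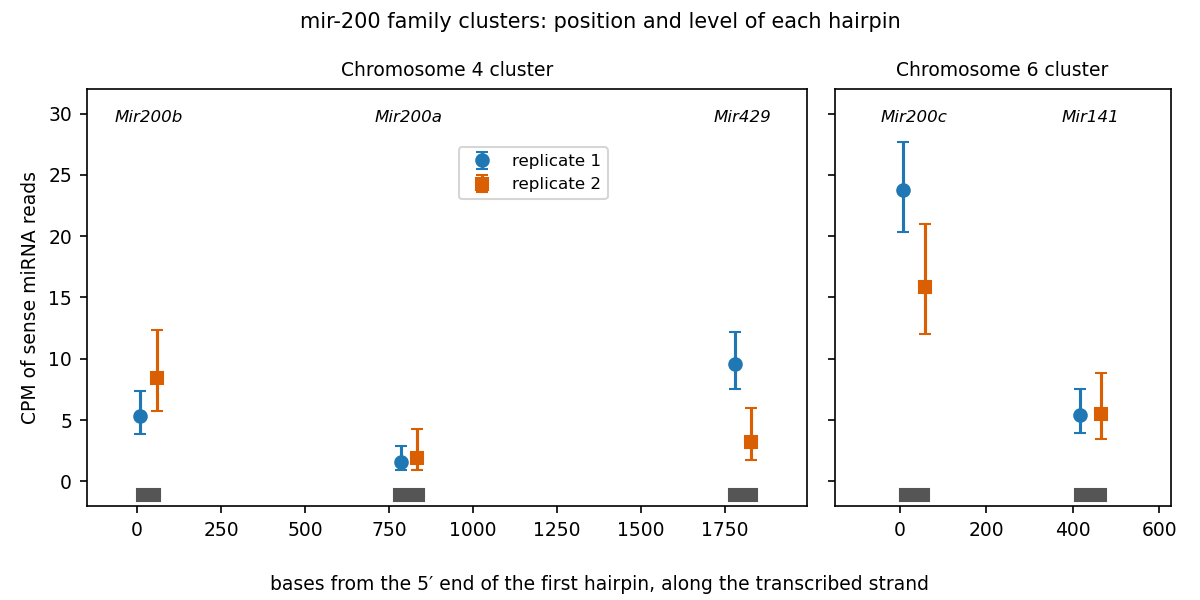
CPM of each mir-200 gene (vertical axis) against its place in its cluster (horizontal axis, bases from the 5′ end of the first hairpin along the transcribed strand), with 95% Wilson intervals for read counting; grey boxes mark the hairpins, and the points of the replicates are set slightly apart. Mir200c at 23.7 and 15.9 CPM has the highest value in each replicate, and Mir200b and Mir429 change order between the replicates.

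The chromosome 6 cluster as a whole exceeded the chromosome 4 cluster 1.77-fold (1.40 to 2.25) in replicate 1 and 1.57-fold (1.05 to 2.37) in replicate 2. By seed, the AAUACUG group shown above held 38.6 CPM (34.2 to 43.6) and 27.6 CPM (22.3 to 34.1). The AACACUG group held 7.08 CPM (5.34 to 9.38) and 7.46 CPM (4.97 to 11.2). The first group was 5.46-fold (4.00 to 7.59) above the second in replicate 1 and 3.70-fold (2.31 to 6.14) in replicate 2. Each cluster contributes to both seed groups, and in each cluster the AACACUG gene was the lower or lowest member in both libraries. For Mir200a against Mir429 in replicate 2, however, the interval of the ratio included 1. A capture bias common to both libraries would enter these ratios and was not tested.

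Mir205 had 1 read in each library, 0.147 CPM (0.0260 to 0.835) in replicate 1 and 0.324 CPM (0.0572 to 1.84) in replicate 2. Both values lie below the level of 3 reads, so its presence in the gland was not established at this depth. Mir203, its partner as a marker of stratified epithelium, was thus abundant while Mir205 was not detectable above that level.

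Ordered by mean level, the genes ran Mir203, Mir200c, Mir200b, Mir429, Mir141, Mir200a and Mir205. A pair was taken as ordered when both libraries agreed in direction and each gap in log2(CPM + 1) was larger than the replicate difference of either gene. Of the 21 pairs, 16 were ordered, and of the 10 pairs within the mir-200 family, 5. Among neighbours in the order, Mir200b and Mir429 did not differ beyond their spread, and neither did Mir429 and Mir141. The other 4 neighbouring pairs were ordered. Unordered pairs that were not neighbours were Mir200c and Mir429, Mir200b and Mir141, and Mir429 and Mir200a. Mir200c was above Mir429 in both libraries, by 1.22 and 1.99, but the replicate difference of Mir429 was 1.32. The genes nearest by mean CPM among those with no shared 20-base run were Mir1947 and Mir1291 for Mir200b, and Mir1291 and Mir3067 for Mir429. For Mir141 they were Mir1224 and Mir3086, and for Mir200a Mir6956 and Mir6968. Next below Mir205, several genes were tied at 3 reads in replicate 1 and 0 in replicate 2 and are not named. Just 1 gene, Mir6956, had the same reads as Mir200a in both libraries, and 23 such genes were tied with Mir205 at 1 read in each, so none of them is named. The nearest genes lay at most 0.11 in log2 from their member, a likeness of level over 2 libraries only.

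**Figure D2:**
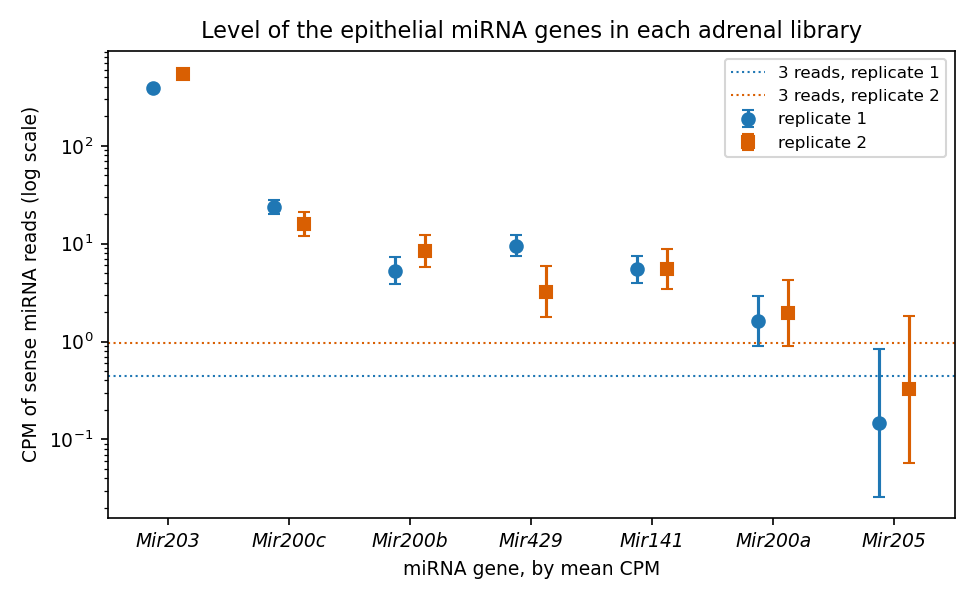
CPM of sense miRNA reads (vertical axis, log scale) of each gene in replicate 1 (circles) and replicate 2 (squares), with 95% Wilson intervals for read counting; dotted lines mark the floor of 3 reads, 0.442 CPM for replicate 1 and 0.973 CPM for replicate 2. Mir203 lies above all others at 386 and 542 CPM, and Mir205 below both lines.

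The replicates were then compared gene by gene, as the log2(CPM + 1) of replicate 2 minus that of replicate 1, with a limit of 1 (2-fold). Neither of the 2 members with a mean of at least 10 CPM passed it, with Mir203 at 0.49 and Mir200c at -0.55. Over all genes of that level, 30 of 280 did, or 10.7%, and the median difference was 0.01. At a mean of 1 to 10 CPM, a range chosen after seeing the data, 1 of 4 members passed, beside 20 of 134 genes, or 14.9%. That member was Mir429 at -1.32, a 2.96-fold (1.51 to 6.45) excess in replicate 1 by CPM without the added 1. With 5 CPM added before the logarithm in place of 1, it stood at -0.82 and within the limit. Mir200b was at 0.58, Mir200a at 0.17 and Mir141 at 0.01. The exact interval of the ratio between the replicates excluded 1 for both members of at least 10 CPM, as for 198 of the 280 genes of that level, or 70.7%. It did so for 1 of the 4 members of 1 to 10 CPM, again Mir429, as for 26 of 134 genes, or 19.4%. Mir205, the remaining member, had too few reads to show a difference. Scaling by TMM moved the median of all genes of at least 10 CPM by -0.10 and scaling by DESeq2 size factors by -0.14. Relative to the sense total, 17 genes of that level passed the limit upward in replicate 2 and 13 downward, against 12 and 17 under TMM and 8 and 17 under DESeq2 size factors. Under both of these scalings Mir141 changed sign, to -0.07 and -0.10, and the other 6 members kept theirs.

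**Figure D3:**
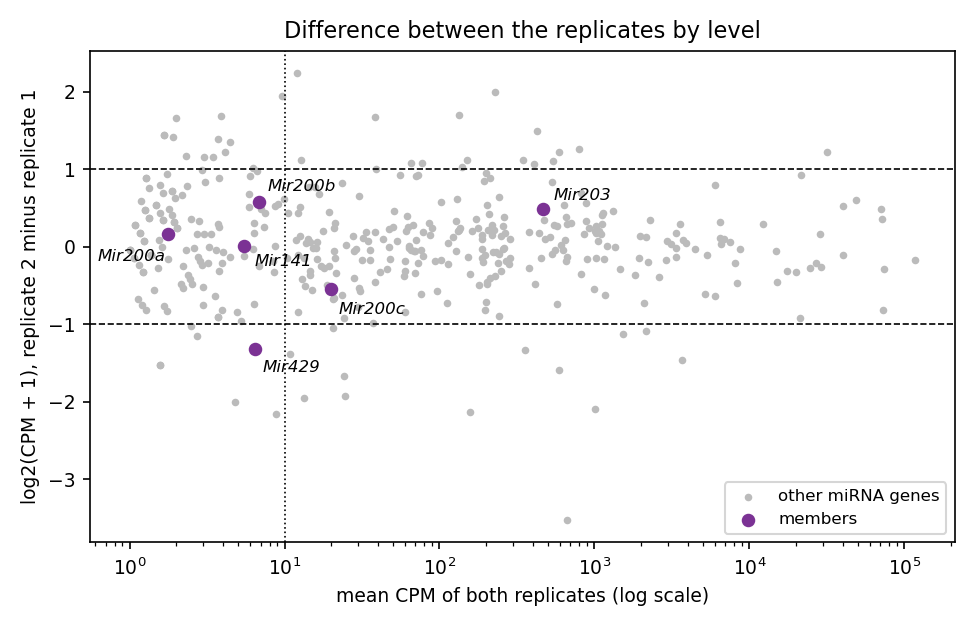
Difference between the replicates, as log2(CPM + 1) of replicate 2 minus replicate 1 (vertical axis), against mean CPM (horizontal axis, log scale) for miRNA genes of at least 1 CPM (grey) and the members (purple); dashed lines mark 2-fold and the dotted line 10 CPM. Mir205 is below the plotted range, and of the 6 members shown only Mir429, at -1.32, lies beyond a dashed line.

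Other miRNA markers of epithelium were unevenly represented in the same libraries. Of the stratified epithelium list, which holds Mir203 and Mir205 too, the keratinocyte miRNA Mir31 measured 1230 and 106 CPM in replicates 1 and 2. Of the 5 genes listed for multiciliated epithelium, 3 were above 2 CPM in both libraries. They were led by Mir34c at 890 and 293 CPM, while Mir449b and Mir449c had no read in either library. Of the 4 genes listed for gut and kidney tubule epithelium, 2 were above 2 CPM, led by Mir192 at 29.2 and 28.5 CPM. Their sum of 45.3 ± 2.20 CPM (n = 2) was near that of the mir-200 family. Mir194-1 of that list had no read, but 20-base runs shared with other hairpins may have cost 2 of the 4 genes reads.

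The mir-183 cluster, known from sensory and neuroendocrine cells, was closer to Mir203 than to the mir-200 family. Its 3 genes summed to 245 CPM in replicate 1 and 423 CPM in replicate 2, with Mir182 at 136 and 264 CPM and Mir96 at 6.63 and 3.24 CPM. The cluster was thus 5.35-fold above the mir-200 family in replicate 1 and 12.1-fold in replicate 2. The neuroendocrine list of Mir375 and the mir-7 genes summed to 63615 CPM in replicate 1 and 87243 CPM in replicate 2. Its lowest gene was Mir7-2 at 128 ± 21.1 CPM, but shared 20-base runs may have cost Mir7-1 and Mir7-2 reads. Within both lists the replicate differences in log2(CPM + 1) were mixed in direction. Those of Mir182 at 0.95 and Mir183 at 0.61 were positive and that of Mir96 was -0.85. Mir375 was at 0.49 and Mir7-2 at 0.34, beside -0.10 for Mir7-1 and -0.04 for Mir7b. Any part of other cell types in the levels of Mir203 or the mir-200 family was not tested.

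The non-epithelial lists ranged from below the mir-200 family to far above it. Mir202, the gene listed for steroidogenic tissue, was below it in both libraries, at 19.0 and 22.7 CPM. The liver marker Mir122, at 257 and 57.7 CPM, was 5.63-fold and 1.65-fold above it. The mesenchyme and smooth muscle list summed to 29875 CPM in replicate 1 and 26473 CPM in replicate 2, led by Mir143, while Mir199a-1 was lowest with 1 and 0 reads. That sum was 654-fold and 756-fold above the mir-200 family. Shared 20-base runs may have cost 3 of the 6 genes of this list reads, Mir199a-1 among them. The endothelial Mir126a measured 92610 and 52519 CPM in replicates 1 and 2 by its sense reads. In the column for both strands its share of reads was 6.94e-05% in place of 7.26%, with only 4 and 2 reads left. The miRNA gene Mir126b is annotated antisense to it, and 628194 and 161999 reads were counted as opposite to Mir126b. The lists hold from 1 to 6 genes and differ in how abundant each gene is per cell, so their sums are not shares of cells.

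**Figure D4:**
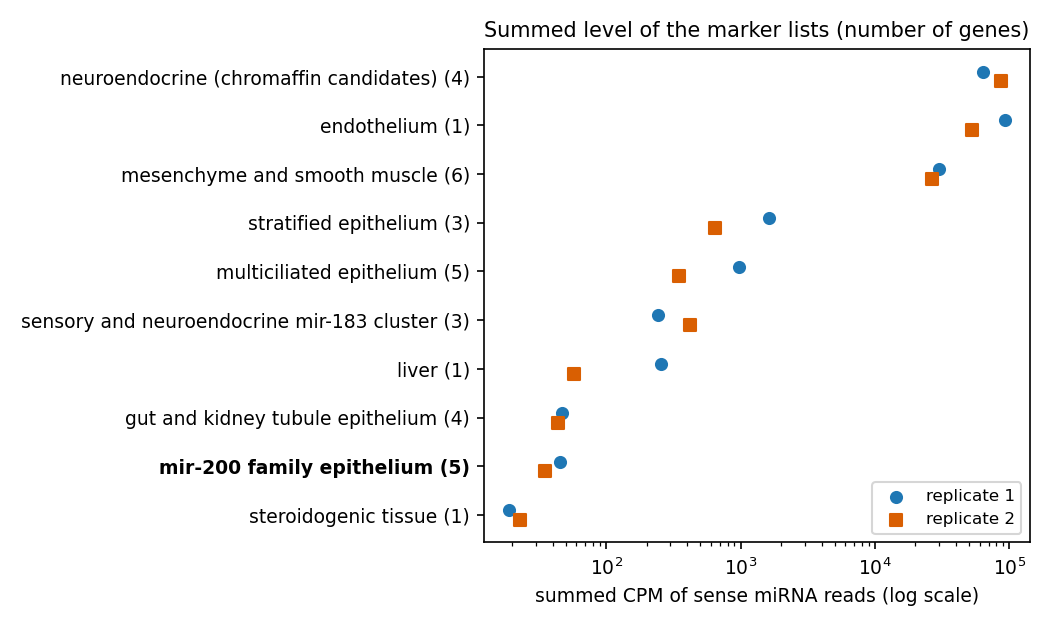
Summed CPM of sense miRNA reads (horizontal axis, log scale) of each marker list in replicate 1 (circles) and replicate 2 (squares), with the number of genes in brackets. The mir-200 family, at 45.7 and 35.0 CPM, lies near the gut and kidney tubule list and far below the neuroendocrine, endothelial and mesenchymal lists.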

How the data were processed

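The authors deposited, for each of 2 libraries, raw read counts per miRNA gene in 3 columns without a header: both strands, sense and opposite strand. Per the text deposited beside the tables, the annotation was GENCODE M21 on mm10. Which aligner was run, and how reads were trimmed, is not given in the sources used here, nor are mismatch limits. The column layout is that of STAR gene counts, and the strand columns were identified from it and from their totals. Multimapping reads belong to no gene, and a CAST variant in a mature sequence could lower a count.

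Sense counts were scaled to the sense total of all miRNA genes, without the mapping lines. Replicates of 1 group allow no test between conditions, so edgeR's quasi-likelihood test was not used and no p-value is given. Wilson and exact 95% intervals came from scipy 1.17.1, TMM factors from edgeR 4.0.16 and size factors from DESeq2 1.42.0. The 2-fold limit and the exact ratio interval were tested on simulated libraries with counting error only, for genes of at least 10 CPM. Genes below that level, and spread between replicates beyond counting, were not covered. Gene names and hairpins came from GENCODE M21, and mature sequences from RefSeq. Mismatches were counted without gaps against the hairpins of counted genes on both strands, not the whole genome.

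The members, lists and limits were chosen with earlier results of these data known. Other genes were named by a rule: the nearest gene by mean CPM above and below each member, and the highest and lowest gene of each list. The other genes of the mir-183 and neuroendocrine lists were named after their values were seen. Scaling, strand column, denominator, pseudocount, filters and single replicates were varied. Libraries had 666 and 586 genes with a read, and 49 of the 703 genes with a read in either had equal counts in both, so they are distinct libraries.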

Additional observations from a re-analysis of the deposited data

Results flagged for a closer look

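Mir203 had reads on the strand opposite to the gene, in a column that no value above uses. They numbered 12 in replicate 1 and 5 in replicate 2, above the 3 reads that a count of 0 allows. Their share of the reads at this hairpin was 0.457% (0.261 to 0.796, Wilson 95% interval) and 0.298% (0.127 to 0.696). Over the 2138 genes with no miRNA gene of GENCODE M21 on their other strand, opposite reads made up 0.00161% and 0.00128%. That share pools the reads of all these genes, of which 32 and 18 had any opposite read. By share, Mir203 was not the highest of them. Mir34b had 6 opposite reads beside 256 sense reads in replicate 1 and 4 beside 103 in replicate 2. Mir708 had 12 beside 2142 and 4 beside 521. By count, none of the 2138 genes had more opposite reads than Mir203 in either library, and 1 other had as many in replicate 1.

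GENCODE M21 has no miRNA opposite Mir203, but the RefSeq table places miR-203b there on the minus strand, within chr12:112130887-112130946 of GRCm38.p6. Its arms are shown because reads from them would be counted as opposite to Mir203. Seeds are in capitals.
miR-203b-5p: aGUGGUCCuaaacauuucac
miR-203b-3p: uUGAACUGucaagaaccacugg
The tables do not give the position of a read within the hairpin, so whether these reads came from miR-203b was not tested. Mir200a, with 2 and 1 opposite reads, stayed within 3 reads. These were 15.4% (4.33 to 42.2) and 14.3% (2.57 to 51.3) of its few reads on both strands. The other 5 members had none.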

How the results depend on the processing

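The 41 values and counts checked gave 210 alternative values. No difference past the 2-fold limit changed direction, but Mir141, within that limit, changed from 0.01 to -0.07 under TMM, -0.10 under DESeq2 size factors and -0.04 with both strands. The ratio of Mir200b to Mir429, with a mean of 1.58, was 0.554 without replicate 2 and 2.60 without replicate 1, which turns their order. Outside the change of denominator, 152 of 164 stayed within the replicate SD, on their side of the limit or, for counts, within 1.5 times. With 2 replicates, a level, share or ratio from a single replicate always lies within that SD of the mean. Such values are among the 152 by construction, the turned ratio of Mir200b to Mir429 included, and say nothing about stability. With multimapping reads added to the denominator, Mir203 stood at 283, Mir200c at 12.2, Mir200b at 4.18, Mir141 at 3.36 and Mir200a at 1.09 CPM, and with all reads at 228, 9.87, 3.37, 2.71 and 0.879 CPM. The corresponding shares were 0.0308% and 0.0248% for all 7 genes and 0.00248% and 0.00201% for the mir-200 family. They were 0.000926% and 0.000748% for the chromosome 4 cluster, 0.00156% and 0.00126% for the chromosome 6 cluster, 0.00204% and 0.00165% for the AAUACUG seed group, and 0.000445% and 0.000359% for the AACACUG seed group. A larger denominator lowers every level by construction. In the column for both strands, whose total is smaller, Mir200a was at 2.35 and Mir141 at 6.16 CPM, the chromosome 4 cluster at 0.00173% and the AACACUG group at 0.000850%. A floor of 10 CPM in both libraries left 2 members, Mir203 and Mir200c. The floor of 3 reads in both libraries left 6, all but Mir205, and 6 were above 2 CPM in the column for both strands. With 5 CPM added before the logarithm, Mir429 lost its 2-fold difference at -0.82. The count of genes differing 2-fold, 30 of 280 (10.7%), was 58 of 703 (8.25%) with no filter, 19 of 173 (11.0%) from 100 CPM and 68 of 280 (24.3%) at a limit of 1.5-fold. Of 50 alternative shares of marker lists, 16 moved beyond the replicate SD, with the endothelial list going from 7.26% to 6.94e-05% with both strands. The 50 include the shares from single replicates, which could not move by that measure. Pair order and replicate differences cannot be formed from a single replicate. No paired analysis was possible because there is 1 group. Depth limits Mir205 and Mir200a most, at 1 and 1 and at 11 and 6 reads.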
